A study of Mus musculus with 2 samples.

Results

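Arg1, Arg2, Nos2, Slc7a2, Ass1 and Acod1 are 6 genes of myeloid arginine, nitric oxide and itaconate metabolism, chosen by symbol from the 32285 genes counted. They were followed across cell classes in leukocytes of mouse MC38 tumors, a colon adenocarcinoma line. The ketogenic diet group were female C57BL/6J mice that ate the diet from day 4 after MC38 cells in matrigel were injected under the skin of the right flank. The normal diet group were female C57BL/6J mice with the same tumors kept on normal diet, and all mice were 6 to 8 weeks old at injection. Tumors were taken at day 14, depleted of dead cells and enriched for CD45+ leukocytes with magnetic beads. The cells of 5 mice per diet were pooled into 1 droplet library, in which unique molecular identifiers (UMIs) count transcripts from their 3 prime ends. With 1 library per diet and no mark of the mouse, the spread between mice cannot be measured, no test between the diets was made, and every interval is a 95% interval for counting error only.

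As background, arginases split arginine into ornithine and urea, Arg1 in the cytosol and Arg2 in mitochondria. Inducible nitric oxide synthase, the product of Nos2, turns the same arginine into nitric oxide and citrulline. Slc7a2 imports arginine into macrophages, and Ass1 joins citrulline to aspartate, the first of the steps by which a cell rebuilds arginine. Acod1, also called Irg1, makes itaconate from cis-aconitate of the citrate cycle, and itaconate inhibits succinate dehydrogenase and activates NRF2. In mouse macrophages Arg1 is a classical target of interleukin 4 and of low oxygen, and Nos2 and Acod1 are classical targets of microbial products and interferon.

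In GRCm38, Arg1 lies on chromosome 10 from 24915221 to 24927484 on the minus strand and Arg2 on chromosome 12 from 79130777 to 79156301 on the plus strand. Nos2 lies on chromosome 11 from 78920787 to 78960254, Slc7a2 on chromosome 8 from 40862396 to 40922308, Ass1 on chromosome 2 from 31470207 to 31520672 and Acod1 on chromosome 14 from 103046977 to 103056573, all on the plus strand. In GENCODE vM21 Arg2 overlaps Gm48780 and Vti1b, and Slc7a2 overlaps Gm26584, each on the opposite strand, and no member overlaps a gene on its own strand.

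RefSeq promoter sequences (GRCm38.p6) were on hand for 2 of the 6 genes, and the 250 bases before their RefSeq start sites are shown. The transcripts of these 2 genes were highest in different classes. Ass1 was found in most phagocytes and in cells gated as CD4 T cells. Acod1 was foremost in neutrophils and came next in the mast cell and basophil class. Cxcl10-high monocytes and macrophages had both genes. Both lie on the plus strand, Ass1 at chr2:31470020-31470269 and Acod1 at chr14:103046762-103047011, and capitals mark motif letters found by a search of both strands.
Ass1: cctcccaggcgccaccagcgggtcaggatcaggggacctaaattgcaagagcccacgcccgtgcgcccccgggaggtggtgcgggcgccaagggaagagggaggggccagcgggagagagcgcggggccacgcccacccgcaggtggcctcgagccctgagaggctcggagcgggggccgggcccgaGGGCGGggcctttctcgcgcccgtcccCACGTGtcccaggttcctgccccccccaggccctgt
Acod1: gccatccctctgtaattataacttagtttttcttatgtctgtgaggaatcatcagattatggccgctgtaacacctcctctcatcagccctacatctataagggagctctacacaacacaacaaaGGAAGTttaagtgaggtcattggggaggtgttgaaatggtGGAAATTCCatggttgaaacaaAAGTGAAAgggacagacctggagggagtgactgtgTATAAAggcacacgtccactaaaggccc
The Ass1 window is 75.6% G and C and holds the GC box GGGCGG at −63 and the E-box CACGTG at −36, counted from the start site. These letters occur in 32.7% and 6.02% of the 32851 windows of the same length. The Acod1 window is 44.4% G and C and holds TATAAA at −28, the interferon regulatory factor type AANNGAAA at −63, the NF-kB type GGAAATTCC at −85 and the ETS core GGAAGT at −125. These occur in 12.4%, 21.3%, 0.286% and 19.7% of windows, and no marked stretch overlaps another. These RefSeq start sites lie downstream of the GENCODE gene starts given above, so the last bases of each window, with both Ass1 motifs and the Acod1 TATAAA, fall inside those gene spans. A match describes letters only and is not a binding site.

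The ketogenic library held 5944 and the normal library 5671 candidate cells, barcodes with at least 500 UMIs and 300 genes, with medians of 3922 and 4200 UMIs. The libraries shared 7 of these barcode sequences. Marker lists placed the cells in 17 classes, 12 of them with at least 50 cells in each library, and no member was a marker; class names stand for these gates. The labelled enrichment for leukocytes left 102 and 74 tumor or stromal cells, led by Rhox5, Cald1 and Dcn. Barcodes with markers of more than 1 lineage were left out, 1205 ketogenic and 1219 normal, and they held 1484 of 3882 ketogenic and 2402 of 6659 normal Arg1 UMIs. In all 12 classes mitochondrially encoded genes were lower in the ketogenic library, with median log2 ratios from −0.91 to −0.40, and ribosomal protein genes were higher, from 0.03 to 0.40. These shifts accompany every difference between the diets below, and their part in it was not tested. A set of 54 ketogenic and 67 normal phagocytes passed no class gate, was led by MHC class II genes, Ctsk and Acp5, and its values are set between the diets only where the dependence on the processing is given.

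**Figure D1:**
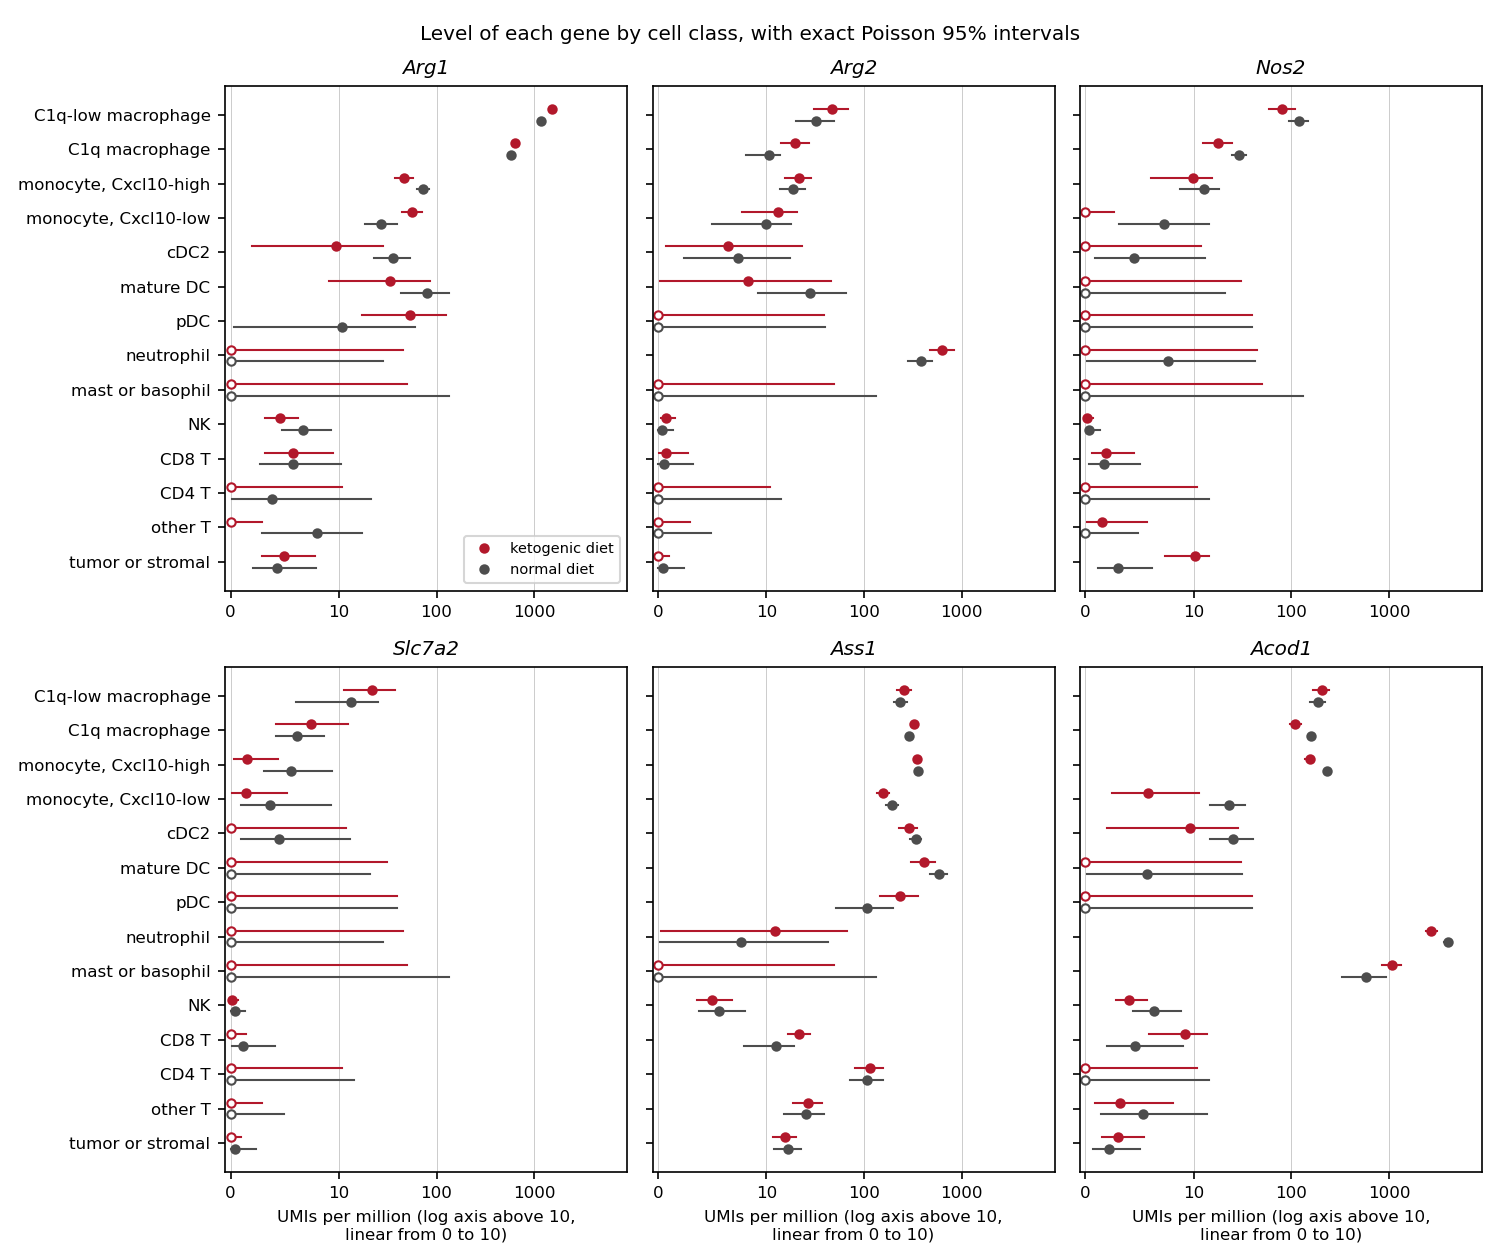
Level of each gene in UMIs per 1000000 UMIs of the class (CPM), one panel per gene, in 14 of the 17 classes, with ketogenic cells (red) above normal diet cells (grey). Bars are exact Poisson 95% intervals and open points are counts of 0; the axis is linear from 0 to 10 and logarithmic above. Arg1 is highest in C1q-low macrophages, Arg2 and Acod1 in neutrophils, and Ass1 runs across macrophages, monocytes and dendritic cells.

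Arg1, the cytosolic arginase, was a macrophage transcript in both libraries. C1q-low macrophages, cells rich in Spp1, Hilpda and Mmp12 with little complement C1q, had 1512 CPM (UMIs of the gene per 1000000 UMIs of the class; 1411 to 1618, 838 UMIs, 163 cells) on the ketogenic and 1167 CPM (1087 to 1251, 796 UMIs, 194 cells) on the normal diet. C1q macrophages had 639 CPM (605 to 675, 1287 UMIs, 481 cells) on the ketogenic and 576 CPM (556 to 597, 3109 UMIs, 1144 cells) on the normal diet. The 2 macrophage classes were thus the highest on each diet, and their intervals did not overlap with each other or with the next class. The ratio of ketogenic over normal was 1.30 (1.17 to 1.43) in C1q-low and 1.11 (1.04 to 1.18) in C1q macrophages. A single ketogenic C1q-low barcode held 121 of the 838 UMIs, and without the top barcode of each library the log2 ratio was 0.23 instead of 0.37. In C1q macrophages the log2 ratio of 0.15 turned to −0.03 when the C1q-low list alone decided which cells were C1q-low.

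Monocytes had far less Arg1, with opposite differences between the diets in their 2 classes. Cxcl10-high monocytes, the interferon-induced ones, had 46.4 CPM (93 UMIs) on the ketogenic and 73.2 CPM (183 UMIs) on the normal diet, a ratio of 0.634 (0.488 to 0.818). Cxcl10-low monocytes had 56.4 CPM (78 UMIs, 24 of them in 1 cell) on the ketogenic and 27.3 CPM (30 UMIs) on the normal diet, a ratio of 2.07 (1.34 to 3.26). The split into 2 classes was made after the data were seen, and without it the monocytes had a log2 ratio of −0.23.

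No Arg1 UMI was found in the 83 ketogenic or the 127 normal diet neutrophils, or in mast cells and basophils. A count of 0 allows up to 36.5 CPM in ketogenic and 22.9 CPM in normal diet neutrophils. NK cells, which should lack the gene, had 4.54 CPM on the ketogenic and 6.71 CPM on the normal diet. Cells gated as type 2 dendritic cells (cDC2) on MHC class II with little C1q, led by H2-Eb1, H2-Aa and Cd209a, had 9.69 CPM (3 UMIs, all in 1 cell) on the ketogenic and 35.6 CPM (24 UMIs in 4 cells, 16 of them in 1) on the normal diet.

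Within the macrophages Arg1 was unevenly spread. In C1q-low macrophages 87 of 163 ketogenic and 88 of 194 normal diet cells had a UMI, and the top 10% of cells held 62.4% and 58.3% of the UMIs. After every cell was thinned to 1000 UMIs, 41.6% (33.9 to 49.6) of 161 ketogenic and 32.4% of 185 normal diet C1q-low macrophages kept a UMI, and 5.59% of the ketogenic and 3.24% of the normal diet cells kept 8 or more. In C1q macrophages the shares were 27.3% of 454 ketogenic and 23.6% of 1101 normal diet cells. In NK cells, the measure of free RNA here, they were 0.127% and 0.561%, with median depths of 3687 and 4684 UMIs against 3026 and 3074 UMIs in C1q-low macrophages.

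**Figure D2:**
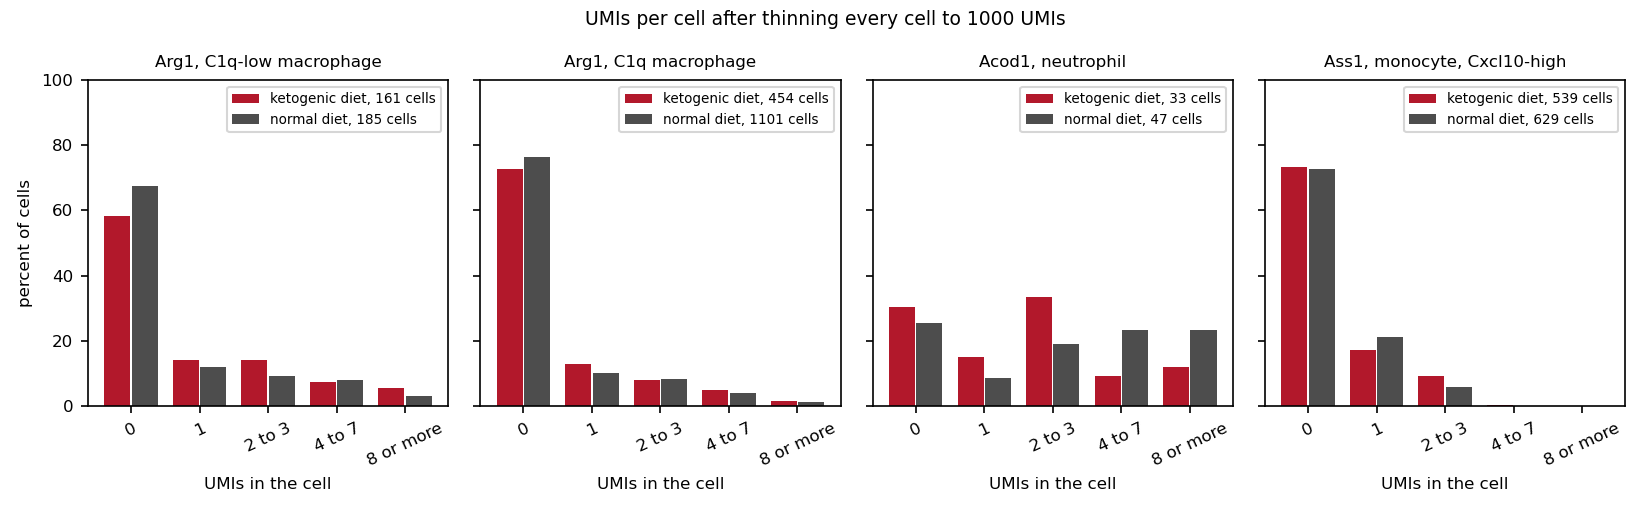
Percent of cells by UMIs of the gene after each cell was thinned to 1000 UMIs, with ketogenic bars (red) left of normal diet bars (grey) and cell numbers in the legends. Most macrophages hold no Arg1 UMI and a few hold 8 or more, whereas 69.7% of ketogenic and 74.5% of normal diet neutrophils hold Acod1.

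Arg1 was higher at each step up in the whole C1q-low list, which holds Spp1 and Mmp12 beside hypoxia and lipid genes. Spp1 alone was at 3237 CPM in ketogenic and 3712 CPM in normal diet C1q-low macrophages, and the hypoxia genes were not scored alone. Across all macrophages and monocytes, ketogenic cells had 71.3 CPM below 1000 CPM of that list, 370 CPM from 1000 to 3000, 1054 CPM from 3000 to 6000, 1779 CPM from 6000 to 10000 and 2080 CPM above. Normal diet cells had 118, 438, 1141, 1273 and 1548 CPM in the same bins. The intervals of the 2 libraries overlapped in the third bin. Ketogenic cells were lower in the 2 bins under it and higher in the top 2 bins, which held 67 and 89 ketogenic and 129 and 117 normal diet cells. These top 2 bins held 410 and 637 ketogenic Arg1 UMIs. The bins were not recomputed without the single ketogenic C1q-low barcode that held 121 Arg1 UMIs. By summed C1q list, Arg1 was instead highest from 10000 to 20000 CPM, at 871 CPM on the ketogenic and 745 CPM on the normal diet, and above 20000 CPM it was at 794 and 507 CPM. Among C1q macrophages, those above 20000 CPM of MHC class II genes had 191 CPM on the ketogenic and 296 CPM on the normal diet. Those below 3000 CPM had 813 CPM on the ketogenic and 623 CPM on the normal diet. From 3000 to 10000 CPM Arg1 was at 572 CPM on the ketogenic and 646 CPM on the normal diet, and from 10000 to 20000 CPM at 537 and 690 CPM. On the normal diet Arg1 was thus lower only above 20000 CPM.

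**Figure D3:**
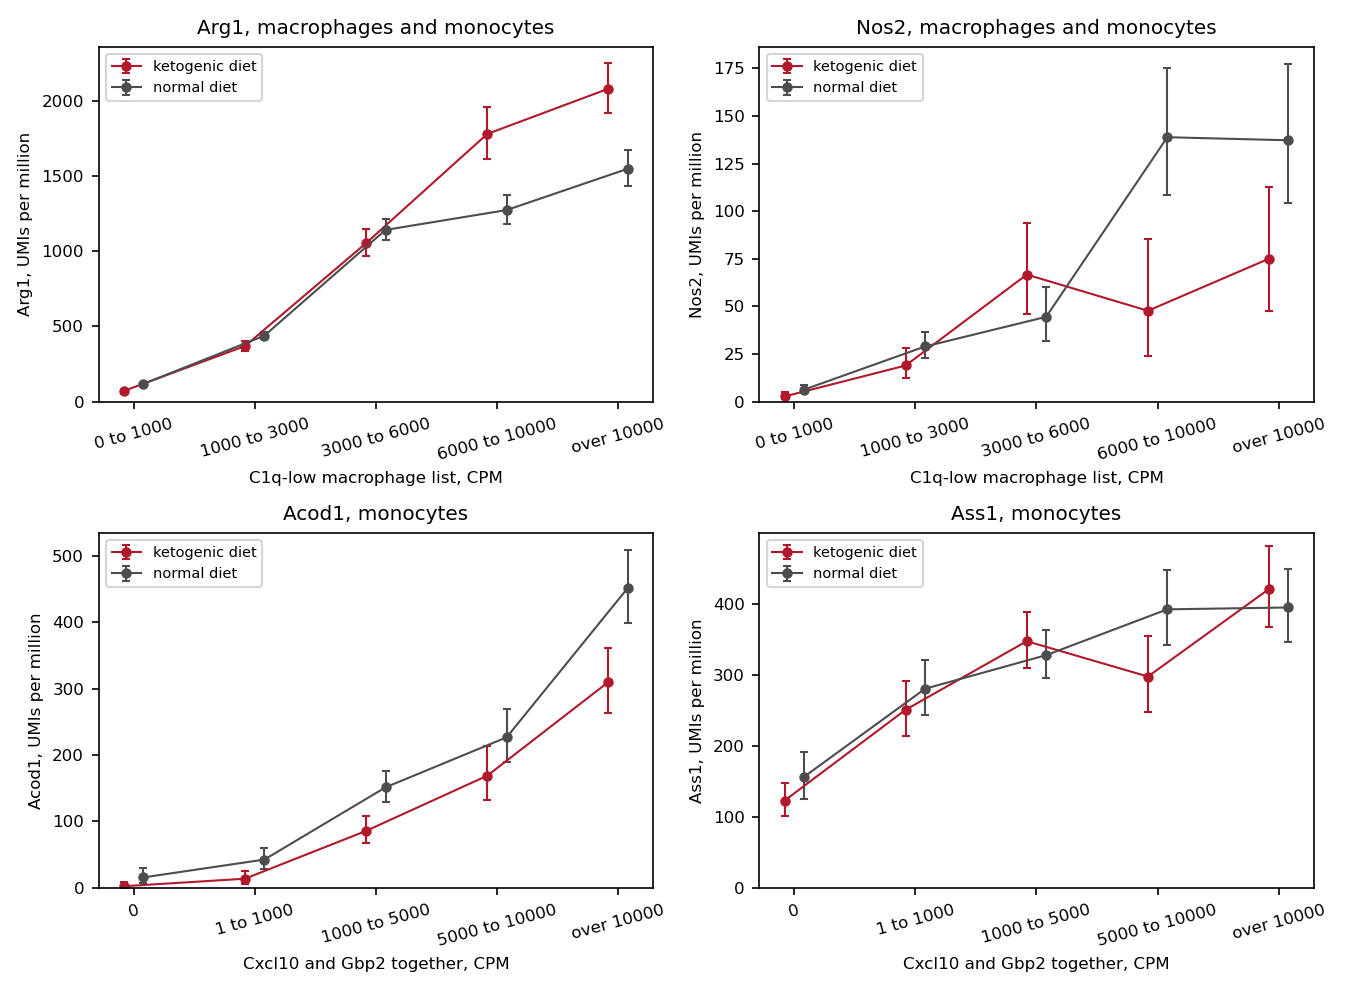
Arg1 and Nos2 by the level of the C1q-low macrophage list in macrophages and monocytes, and Acod1 and Ass1 by the summed level of Cxcl10 and Gbp2 in monocytes, all in CPM; ketogenic in red, normal diet in grey, bars are exact Poisson 95% intervals. Arg1 reaches 2080 CPM in ketogenic and 1548 CPM in normal diet cells of the top bin, and Acod1 310 and 452 CPM.

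Arg2, the mitochondrial arginase, was a neutrophil transcript. Neutrophils had 632 CPM (472 to 829, 52 UMIs, 83 cells) on the ketogenic and 382 CPM (284 to 504, 50 UMIs, 127 cells) on the normal diet, a ratio of 1.65 (1.10 to 2.49). C1q-low macrophages came next with 46.9 CPM (26 UMIs) on the ketogenic and 32.3 CPM (22 UMIs) on the normal diet. Their interval lay above that of Cxcl10-high monocytes on the ketogenic diet (30.6 to 68.7 against 15.5 to 28.9) and overlapped it on the normal diet. C1q macrophages had 19.9 CPM (40 UMIs) on the ketogenic and 10.8 CPM (58 UMIs) on the normal diet, a ratio of 1.85 (1.2 to 2.81). Cxcl10-high monocytes had 21.4 CPM on the ketogenic and 18.8 CPM on the normal diet, and NK cells 0.736 and 0.373 CPM.

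Arg2 in neutrophils was spread over many cells, with 1 to 3 UMIs in each of 39 ketogenic and 41 normal diet cells. After thinning, 60.6% of 33 ketogenic and 34.0% of 47 normal diet neutrophils kept an Arg2 UMI, with 50 and 80 shallower cells left out. The log2 ratio of 0.72 turned to −0.22 with barcodes of mixed lineage kept and was 0.27 with the gate thresholds doubled, which raises the level a class needs and also the level at which a barcode is left out as mixed. The free RNA estimated in neutrophils was 14.6% of UMIs in the ketogenic and 9.28% in the normal library. Of the Arg2 UMIs of all classed cells, 26.7% in the ketogenic and 24.5% in the normal library came from neutrophils, although neutrophils held 0.359% and 0.607% of all UMIs.

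Nos2, the inducible nitric oxide synthase, was highest in the same macrophages as Arg1. C1q-low macrophages had 81.2 CPM (59.2 to 109, 45 UMIs in 28 cells) on the ketogenic and 119 CPM (94.3 to 148, 81 UMIs in 32 cells) on the normal diet, a ratio of 0.684 (0.464 to 0.996). C1q macrophages had 17.9 CPM (36 UMIs) on the ketogenic and 29.1 CPM (157 UMIs) on the normal diet, a ratio of 0.614 (0.415 to 0.887). Nos2 was thus lower in both ketogenic macrophage classes, and the alternatives gave log2 ratios of −0.86 to −0.33 in C1q-low and −0.77 to −0.57 in C1q macrophages. Arg1 was higher in both, but its log2 ratio in C1q macrophages ran from −0.03 to 0.26 over the alternatives. None of these Nos2 and Arg1 ratios reached 1.5-fold with 5 CPM added.

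Cxcl10-high monocytes had 9.97 CPM (20 UMIs) of Nos2 on the ketogenic and 12.8 CPM (32 UMIs) on the normal diet. Ketogenic Cxcl10-low monocytes had no Nos2 UMI in 409 cells, and normal diet ones had 8 UMIs in 311 cells. The ketogenic count allows up to 2.17 CPM at 3 counts, and its exact Poisson interval reaches 2.67 CPM. By level of the C1q-low list, from the lowest of the 5 bins to the highest, ketogenic macrophages and monocytes had 2.73, 19.0, 66.7, 47.7 and 75.1 CPM of Nos2 and normal diet ones 6.29, 29.0, 44.5, 139 and 137 CPM. The ketogenic value was higher in the third bin, from 3000 to 6000 CPM of the list, and lower in the other 4; the intervals overlapped in the first 3 bins and in the top bin, at 47.6 to 113 CPM against 104 to 177 CPM, and were apart from 6000 to 10000 CPM. Tumor or stromal cells had 38 Nos2 UMIs on the ketogenic and 7 on the normal diet, 10.4 and 3.0 CPM, and 22 of the 38 were in 1 cell.

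Nos2 was found at a higher share in macrophages with Arg1 than in those without it, by little in ketogenic C1q-low macrophages. After thinning, Nos2 was found in 4.84% (1.80 to 10.2) of 124 ketogenic C1q macrophages with Arg1 and in 0.909% (0.188 to 2.63) of 330 without it. In normal diet C1q macrophages it was found in 6.15% (3.56 to 9.8) of 260 with Arg1 and in 1.55% (0.826 to 2.63) of 841 without it. In C1q-low macrophages the shares were 8.96% of 67 with and 7.45% of 94 without Arg1 on the ketogenic diet, and 20% of 60 with and 5.6% of 125 without it on the normal diet. The intervals with and without Arg1 were apart in normal diet C1q macrophages and overlapped in the other 3 sets. Both genes were higher in the top than in the lowest bin of the C1q-low list, and the part of that in their joint detection was not tested. Ass1 was found less often beside Arg1 in ketogenic C1q macrophages, in 19.4% (12.8 to 27.4) with and 30% (25.1 to 35.3) without it, intervals that overlap, and in normal diet ones in 18.8% and 22.2%.

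Slc7a2, the arginine importer, was near the limit of detection. C1q-low macrophages had 21.7 CPM (12 UMIs) on the ketogenic and 13.2 CPM (9 UMIs) on the normal diet, and C1q macrophages 7.45 CPM (15 UMIs) on the ketogenic and 6.12 CPM (33 UMIs) on the normal diet. The ratios, 1.64 (0.635 to 4.41) and 1.22 (0.615 to 2.31), include 1. Cxcl10-high monocytes had 1.5 CPM (3 UMIs) on the ketogenic and 5.60 CPM (14 UMIs) on the normal diet. Over all classed cells it had 33 ketogenic and 68 normal diet UMIs, of which C1q-low macrophages held 36.4% and 13.2% and C1q macrophages 45.5% and 48.5%.

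Ass1, argininosuccinate synthase, was found in every class but mast cells and basophils. Cxcl10-high monocytes had 351 CPM (326 to 378, 704 UMIs) on the ketogenic and 362 CPM (339 to 387, 906 UMIs) on the normal diet, a ratio of 0.969 (0.877 to 1.07). C1q macrophages had 326 CPM (657 UMIs) on the ketogenic and 292 CPM (1576 UMIs) on the normal diet, a ratio of 1.12 (1.02 to 1.22). C1q-low macrophages had 260 CPM on the ketogenic and 236 CPM on the normal diet, a ratio of 1.10 (0.873 to 1.39). The cDC2 had 287 CPM and 341 CPM. On the ketogenic diet the intervals of these 4 classes overlapped with the next in order, and on the normal diet those of C1q and C1q-low macrophages did not. Mature CCR7-positive dendritic cells had 409 CPM (49 UMIs, 37 cells) on the ketogenic and 589 CPM (104 UMIs, 44 cells) on the normal diet, a ratio of 0.694 (0.484 to 0.984).

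Cxcl10-low monocytes had less Ass1 than Cxcl10-high ones on both diets, 158 CPM on the ketogenic and 195 CPM on the normal diet, with a ratio between the diets of 0.806 (0.665 to 0.978). In monocytes without a Cxcl10 or Gbp2 UMI, Ass1 was at 123 CPM on the ketogenic and 156 CPM on the normal diet. In those above 10000 CPM of the 2 genes together it was at 421 CPM on the ketogenic and 395 CPM on the normal diet. Ass1 was also higher in C1q macrophages above 20000 CPM of MHC class II, the bin in which Arg1 was lowest. Ass1 was at 426 CPM on the ketogenic and 406 CPM on the normal diet there, and below 3000 CPM at 275 and 245 CPM.

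Lymphocytes differed in Ass1. Cells gated as CD4 T cells, led by Tnfrsf4, Ikzf2 and Icos, had 114 CPM (81.3 to 156, 39 UMIs) on the ketogenic and 108 CPM (71.5 to 156, 28 UMIs) on the normal diet. This class rests on a marker list. Among its leading genes 4 are from that list, and Cd4 is not one of them. Ncr1 was at 182 CPM on the ketogenic and 135 CPM on the normal diet in this class, against 391 and 374 CPM in NK cells. Which cells of the class held the Ass1 UMIs was tested only by the Foxp3, Il17a and Cd163l1 subsets below. CD8 T cells had 21.8 CPM (57 UMIs) on the ketogenic and 12.6 CPM (22 UMIs) on the normal diet, and NK cells 5.03 and 5.59 CPM. The CD4 T cell intervals lay above those of CD8 T cells on both diets. T cells with a UMI of Foxp3, the regulatory T cell factor, had 129 CPM (23 UMIs, 33 cells) on the ketogenic and 95.8 CPM (16 UMIs, 31 cells) on the normal diet. The other CD4 T cells had 75.9 CPM (19 UMIs, 54 cells) on the ketogenic and 83.8 CPM (15 UMIs, 41 cells) on the normal diet, and on each diet their interval overlapped that of the Foxp3 cells. T cells with Il17a or Cd163l1, of the interleukin 17 type, had 46.3 CPM (13 UMIs, 69 cells) on the ketogenic diet and no Ass1 UMI in the 4 such cells on the normal diet. Neutrophils had 1 Ass1 UMI in each library, and mast cells and basophils none.

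Acod1, the itaconate enzyme, was among the leading genes of neutrophils. Neutrophils had 2722 CPM (2377 to 3103, 224 UMIs in 57 of 83 cells) on the ketogenic and 4045 CPM (3707 to 4405, 529 UMIs in 94 of 127 cells) on the normal diet, a ratio of 0.673 (0.573 to 0.788). Median depth was 918 UMIs in ketogenic and 917 UMIs in normal diet neutrophils, and the mononuclear phagocyte list summed to 3779 and 4022 CPM. The C1q macrophage list summed to 219 CPM with 7 of 10 markers at 0 in ketogenic and to 443 CPM with 1 of 10 at 0 in normal diet neutrophils, the C1q-low list to 2467 and 2783 CPM with 2 of 10 at 0 in each, and the monocyte list to 4144 and 3219 CPM with 2 of 11 at 0 in each. Among single markers Spp1 was at 182 CPM in ketogenic and 1070 CPM in normal diet neutrophils, C1qa at 0 and 53.5 CPM and Chil3 at 0 and 76.5 CPM. The part of such RNA in the Acod1 difference was not tested. The neutrophil marker list, led by S100a9 and S100a8, summed to 124752 CPM in ketogenic and 86242 CPM in normal diet neutrophils. Acod1 was lower on the ketogenic diet at each level of that list, 2931 against 4445 CPM from 10000 to 40000 CPM of the list, 4464 against 5326 CPM from 40000 to 80000, and 2226 against 3072 CPM above. The intervals were apart in the lowest bin, with 19 ketogenic and 40 normal diet cells, and overlapped in the middle bin, with 13 and 28 cells, and in the top bin, with 51 and 59 cells.

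After thinning, 69.7% of 33 ketogenic and 74.5% of 47 normal diet neutrophils kept an Acod1 UMI, and 12.1% of the ketogenic and 23.4% of the normal diet cells kept 8 or more. The alternatives gave log2 ratios of −1.01 to −0.41 in neutrophils. With the gate thresholds doubled, those for leaving out mixed barcodes included, the level was 1655 CPM on the ketogenic and 2977 CPM on the normal diet. Arg2 and Acod1 in the same neutrophil were no more frequent than Acod1 without Arg2, at these cell numbers: 65% of 20 ketogenic neutrophils with Arg2 and 76.9% of 13 without it had Acod1, as did 68.8% of 16 and 77.4% of 31 normal diet ones.

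In monocytes Acod1 went with Cxcl10 and Gbp2. Cxcl10-high monocytes had 154 CPM (308 UMIs) on the ketogenic and 233 CPM (582 UMIs) on the normal diet, a ratio of 0.660 (0.573 to 0.759). Cxcl10-low monocytes had 5.78 CPM (8 UMIs) on the ketogenic and 22.7 CPM (25 UMIs) on the normal diet, a ratio of 0.254 (0.0992 to 0.582). The log2 ratio of −1.97 in these cells was −0.23 with barcodes of mixed lineage kept. By level of Cxcl10 and Gbp2, ketogenic monocytes had 2.17, 13.5, 85.6, 169 and 310 CPM and normal diet monocytes 15.4, 42.4, 151, 227 and 452 CPM, so the ketogenic value was lower in each of the 5 bins. Over both monocyte classes together, those with Acod1 also had Ass1 more often: 42.4% of 59 ketogenic monocytes with Acod1 and 18.9% of 883 without it, and 36.7% of 109 and 21.7% of 821 normal diet ones. Both genes were higher in the Cxcl10-high class, and the part of class in this was not tested.

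C1q macrophages had 110 CPM of Acod1 (222 UMIs) on the ketogenic and 160 CPM (865 UMIs) on the normal diet, a ratio of 0.688 (0.591 to 0.798), and the alternatives gave log2 ratios of −0.67 to −0.42. In C1q-low macrophages, with 204 CPM (113 UMIs) on the ketogenic and 186 CPM (127 UMIs) on the normal diet, the ratio of 1.10 (0.842 to 1.42) had an interval that included 1, and 3 alternatives turned it below 1. The difference between the 2 classes was not tested. NK cells had 4.05 CPM on the ketogenic and 6.34 CPM on the normal diet.

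Acod1 was the only member found in the mast cell and basophil class, which was led by Cma1, Mcpt4 and Ccl3, with 1077 CPM (80 UMIs, 40 cells) on the ketogenic and 578 CPM (16 UMIs, 17 cells) on the normal diet, a ratio of 1.86 (1.08 to 3.41). Cells with Mcpt8, a basophil protease, and without the mast cell proteases Cma1 and Mcpt4 had 1654 CPM (77 UMIs, 26 cells) on the ketogenic and 771 CPM (9 UMIs, 7 cells) on the normal diet. The 4 ketogenic and 2 normal diet cells rich in Cma1 and Mcpt4 had none. Cells of the class in neither subset went the other way, with overlapping intervals. They had 194 CPM (3 UMIs, 10 cells) on the ketogenic and 689 CPM (7 UMIs, 8 cells) on the normal diet. These subsets were chosen after the values were seen.

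**Figure D4:**
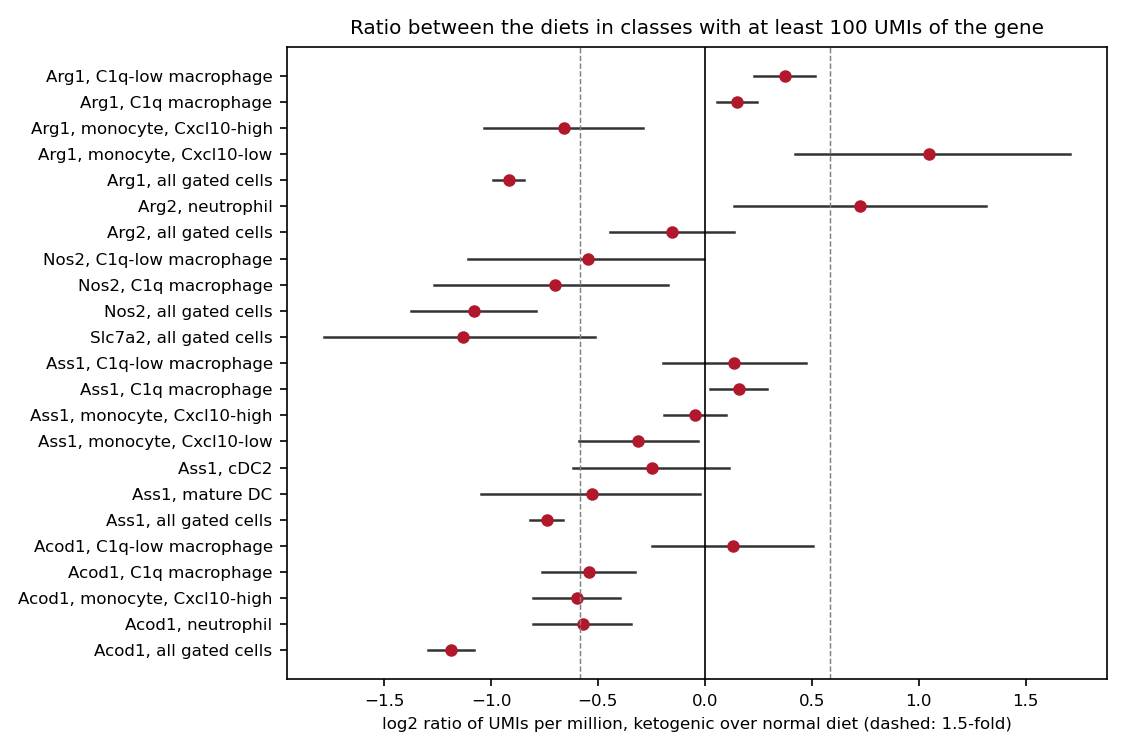
Log2 ratio of CPM, ketogenic over normal diet, for each gene and class with at least 100 UMIs over both libraries and for all classed cells, with exact 95% intervals for counting error; dashed lines mark 1.5-fold. Over all classed cells every gene but Arg2 lies well below 0, whereas the points of Arg1 and Ass1 in the macrophage classes lie above it. The interval of Ass1 in C1q-low macrophages includes 0.

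Few of these differences reached 1.5-fold with 5 CPM added to both sides, the size used here for all genes. Of 16 values with at least 100 UMIs, 2 were higher and 1 lower on the ketogenic diet. Arg1 was the lower one, in Cxcl10-high monocytes, where 5.74% of 4459 genes were as much lower. Arg1 in Cxcl10-low monocytes was higher, where 1.79% of 3291 genes were, and Arg2 in neutrophils, where 8.21% of 329 genes were. None of the 4 members measured reached it in C1q-low or in C1q macrophages, where 3.66% and 1.03% of genes were higher and 11.2% and 5.55% lower.

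Over all classed cells the members were lower on the ketogenic diet, except Arg2, whose interval included 1. Arg1 had 104 CPM on the ketogenic and 197 CPM on the normal diet, a ratio of 0.529 (0.503 to 0.557). Ass1 had 94.6 CPM and 158 CPM, a ratio of 0.599, Acod1 45.4 CPM and 103 CPM, a ratio of 0.440, and Nos2 6.5 CPM and 13.7 CPM, a ratio of 0.473. Arg2 had 8.51 CPM and 9.47 CPM, a ratio of 0.898 (0.734 to 1.10). C1q macrophages made up 8.09% of ketogenic and 20.2% of normal diet candidate cells, and NK cells, which hold little of any member, 27.6% and 16.3%.

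With each class given its share of UMIs in the normal library, the ketogenic levels per class gave 220 CPM of Arg1 and a ratio of 1.12, and 163 CPM of Ass1 and a ratio of 1.03. The same step left ratios of 0.705 for Nos2 and 0.709 for Acod1 and gave 1.51 for Arg2. In the other direction, normal diet levels at the ketogenic shares of classes gave ratios of 0.471 for Arg1, 0.596 for Ass1, 0.590 for Acod1 and 0.578 for Nos2. At the makeup of the normal library the ketogenic total was thus lower for Nos2 and Acod1 and not for Arg1 and Ass1. These ratios carry no interval, leave out mixed barcodes and rest on gates set after the data were seen. Why the totals differ was not tested. Barcodes of at most 100 UMIs, which hold free RNA, had 53.9 CPM of Arg1 in the ketogenic and 122 CPM in the normal library.

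**Figure D5:**
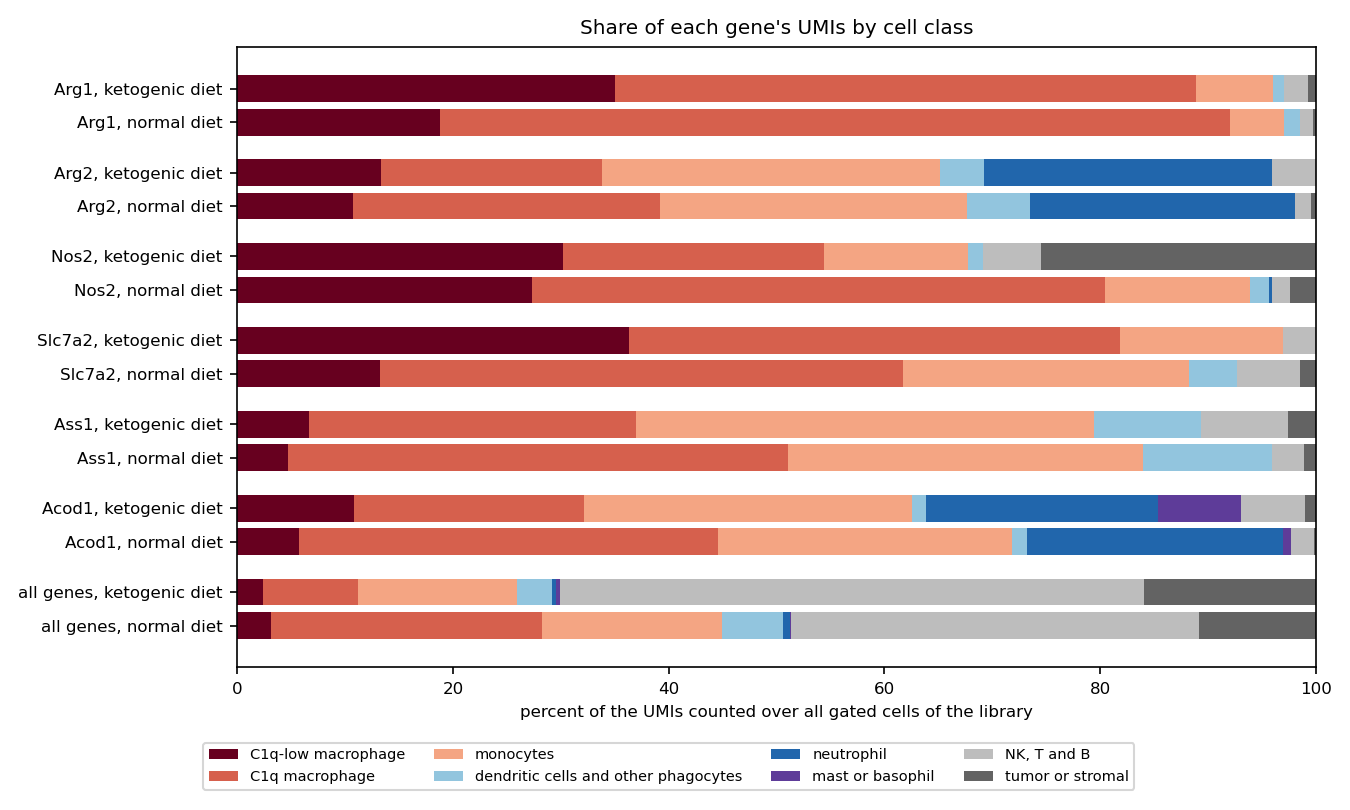
Share of each gene's UMIs by cell class over all classed cells, in percent, with the ketogenic bar above the normal diet bar and the share of all genes' UMIs at the bottom. C1q-low macrophages hold 35.0% of ketogenic and 18.8% of normal diet Arg1 UMIs, and neutrophils 21.5% and 23.8% of Acod1 UMIs.

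Shares of the transcripts by class were as follows. C1q-low macrophages held 35.0% of Arg1 UMIs in the ketogenic and 18.8% in the normal library, and C1q macrophages 53.8% and 73.3%. For Nos2, C1q macrophages held 24.2% in the ketogenic and 53.0% in the normal library, and C1q-low macrophages 30.2% and 27.4%. Tumor or stromal cells held 25.5% and 2.36% of Nos2 UMIs, and 22 of their 38 ketogenic UMIs were in 1 cell. For Acod1, Cxcl10-high monocytes held 29.6% and 26.2%, neutrophils 21.5% and 23.8%, and C1q macrophages 21.3% and 38.9%. For Ass1, Cxcl10-high monocytes held 32.5% and 26.6%, and C1q macrophages 30.3% and 46.3%.

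The rest of the arginine and polyamine list, 24 genes, had few differences of 1.5-fold. Of its 16 genes measured in C1q macrophages none was higher and 1 lower, Slc7a7, an exporter of basic amino acids. Slc7a7 had 38.3 CPM on the ketogenic and 61.0 CPM on the normal diet (5.55% of 6437 genes lower). The median log2 ratio was −0.10 for the 16 genes and −0.11 for all genes of the class. None of the 5 measured in C1q-low macrophages, the 10 in Cxcl10-high monocytes and the 3 in neutrophils was past the fold. In cDC2 Slc3a2, the heavy chain of amino acid transporters, was at 126 CPM on the ketogenic and 239 CPM on the normal diet, where 7.63% of 1415 genes were lower. In tumor or stromal cells Sat1, which acetylates polyamines, was at 207 CPM on the ketogenic and 121 CPM on the normal diet, where 1.84% of 6149 genes were higher and 3.12% lower.

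The 16 genes of nitric oxide and its cofactor were largely unmeasured. In C1q macrophages 7 passed the count minimum, and none of them, nor of the 4 in Cxcl10-high monocytes, was past the fold. Gch1, the first enzyme of tetrahydrobiopterin synthesis, was past it in CD8 T cells, with 40.6 CPM on the ketogenic and 23.5 CPM on the normal diet, where 1.4% of 4849 genes were higher. Nosip, which binds nitric oxide synthases, was past it in other T cells, with 58.5 CPM on the ketogenic and 35.8 CPM on the normal diet (2.87% of 2682 genes higher). Pts, another tetrahydrobiopterin enzyme, was past it in tumor or stromal cells, with 40.4 and 25.3 CPM.

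Of the 36 genes around itaconate, the citrate cycle and NRF2, 30 were measured in C1q macrophages and none was past the fold, and the median log2 ratio was −0.08. In Cxcl10-high monocytes 1 of 25 was, Nfkbiz, a co-activator of NF-kB genes that itaconate derivatives are known to curb. It had 80.8 CPM on the ketogenic and 146 CPM on the normal diet (5.74% of 4459 genes lower). Nfkbiz was also lower in Cxcl10-low monocytes, 56.4 CPM on the ketogenic and 147 CPM on the normal diet (6.68% of genes lower), and in other T cells, 46.6 and 96.8 CPM (3.39% lower). In neutrophils Nfkbiz was at 450 CPM on the ketogenic and 963 CPM on the normal diet, and Slc7a11, the cystine importer and an NRF2 target, at 960 and 1468 CPM, where 14% of genes were lower. Nfe2l2, which encodes NRF2, was higher there, with 608 CPM on the ketogenic and 382 CPM on the normal diet. In cDC2 the NRF2 target Hmox1 was at 265 CPM on the ketogenic and 125 CPM on the normal diet, and the stress factor Atf3 at 811 and 457 CPM, where 2.76% of genes were higher. Fh1, the fumarase of the citrate cycle, was at 51.3 and 31.8 CPM in Cxcl10-low monocytes, and Atf3 at 38.5 and 18.9 CPM in tumor or stromal cells.

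Of the 24 inducers, signals and factors known to act on these genes, Il1b had the widest difference in C1q-low macrophages, with 1943 CPM on the ketogenic and 850 CPM on the normal diet, a ratio of 2.29 (2.06 to 2.53). Il10ra, a chain of the interleukin 10 receptor, was at 75.8 and 128 CPM there and Nfkb1 at 65.0 and 103 CPM, so 1 of 16 measured was higher and 2 were lower. Of all 1774 genes measured in that class, 3.66% were higher and 11.2% lower. In C1q macrophages 2 of 22 were higher, Il1b with 1573 CPM on the ketogenic and 1037 CPM on the normal diet and Cebpb, a factor that binds the Arg1 enhancer, with 615 and 403 CPM. Irf8, an interferon-side factor, was lower, with 226 CPM on the ketogenic and 355 CPM on the normal diet, as was Ppard with 9.44 and 18.7 CPM. Of all 6437 genes measured in C1q macrophages, 1.03% were higher and 5.55% lower.

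In Cxcl10-high monocytes Il10ra was the 1 of 19 inducers past the fold, with 155 CPM on the ketogenic and 273 CPM on the normal diet. There 5.74% of 4459 genes were lower. In Cxcl10-low monocytes 4 of 18 were lower and none higher: Il10ra with 84.6 and 169 CPM, Stat6 with 57.1 and 90.0 CPM, Ptgs2 with 48.4 and 76.3 CPM, and Irf8 with 170 and 258 CPM. Of all 3291 genes measured there, 1.79% were higher and 6.68% lower. In neutrophils Ptgs2, the inducible prostaglandin synthase, was 1 of 5 measured and was lower, with 741 CPM on the ketogenic and 1460 CPM on the normal diet. There 14% of 329 genes were lower. In cDC2 Cebpb was at 333 and 157 CPM and Il1b at 1782 and 1099 CPM, both higher, and Il10ra at 126 and 230 CPM, lower. Stat3, the other one lower there, was seventh by size and is named because it completes the count, with 113 and 185 CPM. Of all 1415 genes measured in cDC2, 2.76% were higher and 7.63% lower. Among lymphocytes Irf8 was lower in CD4 T cells, 396 CPM on the ketogenic and 696 CPM on the normal diet (6.12% of 850 genes lower and 4% higher), and in other T cells, 409 and 760 CPM. In NK cells Cebpb was at 46.3 and 28.5 CPM, where 0.352% of 7671 genes were higher and 1.15% lower, and it was the 1 gene of the 4 lists past the fold. In CD8 T cells Il1b, a myeloid transcript, was at 90.8 and 40.6 CPM and Il10ra at 49.4 and 85.3 CPM, where 3.46% of genes were lower. The remaining named genes were Nfkb1 and Cebpb in other T cells, at 106 and 166 CPM and at 62.5 and 39.8 CPM, and Klf4 in tumor or stromal cells, at 66.9 and 42.4 CPM.

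A few partners of the members were followed whatever their ratio and were chosen after their values were seen. Asl, which completes arginine synthesis after Ass1, had 32.4 CPM on the ketogenic and 41.2 CPM on the normal diet in Cxcl10-high monocytes and 26.4 and 31.7 CPM in NK cells, a narrower gap than that of Ass1. Among the larger classes Gch1 was highest in Cxcl10-high monocytes, with 279 CPM on the ketogenic and 282 CPM on the normal diet, where Nos2 was low. Odc1, which makes polyamine from ornithine, was highest in CD4 T cells, with 578 CPM on the ketogenic and 834 CPM on the normal diet, and was at 65.0 and 88.0 CPM in the C1q-low macrophages rich in Arg1.

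Over the 24 values of 12 classes in 2 libraries, the genes whose levels were most like those of each member were ranked by Pearson correlation of log2(CPM + 10) among 9570 genes, as a description in which classes of 1 library share depth and free RNA. For Arg1 they were Cd36 (0.94), F7, C3ar1, Nr1h3 and Trem2 (0.93), of which Cd36 and Trem2 were markers used to define the macrophage classes. For Nos2 they were Rgl1 (0.92), Gpnmb, Mmp13, Cd36 and Igf2bp2 (0.90). For Arg2 they were Hcar2 (0.97), Ptgs2os2, Slc7a11, Dmxl2 and Csf3r (0.95), the last a neutrophil marker. For Acod1 they were Gm13822 (0.95), Dmxl2, Rsad2, Slfn4 and Cd300ld (0.94), and for Ass1 Snx2 (0.95), Necap2, Tbxas1 and Lsr (0.92). Among the members, Arg2 and Acod1 were closest with 0.93, followed by Arg1 and Slc7a2 with 0.89 and Arg1 and Nos2 with 0.88, whereas Arg1 and Arg2 had 0.16. Slc7a2 had 101 UMIs here, below the minimum of 200 set for the compared genes. Arg2 was at 632 and 382 CPM in neutrophils and at most 46.9 CPM in the other classes.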

How the data were processed

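The authors deposited unfiltered UMI counts, whole numbers for each gene in each barcode, summing to 42710007 in the ketogenic and 37575996 in the normal library. Per the file headers Cell Ranger 4 wrote them, whereas Cell Ranger 6.0.0, Seurat 3.2.0, GRCm38 and mm10 stand in the submitters' processing notes.

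Computation used scipy 1.17.1, numpy 2.4.6, pandas 2.3.3 and matplotlib 3.10.9 under Python 3.11.15. Barcodes with at least 500 UMIs, 300 genes and at most 10% mitochondrial UMIs were classed by summed CPM of marker lists, and a list counted with 3 or more UMIs of 2 or more of its genes. A lineage needed 4000 CPM of mononuclear phagocyte, 10000 of neutrophil, or 2000 of T or NK markers. Barcodes with markers of several lineages were left out, a step that also removes doublets of unlike cells. No doublet caller was run. Within phagocytes, C1q-low macrophages needed 3000 CPM of their list and more of it than of the C1q list, C1q macrophages 4000 CPM and monocytes 6000 CPM of theirs. Monocytes were split at 600 CPM of Cxcl10 and Gbp2, and 47 of 956 ketogenic and 36 of 951 normal diet monocytes lay within 20% of that value. Thresholds were set after the data were seen, and the members and gene lists were chosen with earlier results of these data known.

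UMIs were summed per class and library and divided by the class total. Intervals are exact Poisson for levels, exact conditional for ratios and Clopper-Pearson for shares, at 95%; a count of 0 allows up to 3 counts. Fewer cells of a class and less RNA per cell cannot be told apart in totals over all cells. A difference was counted as past the fold at 1.5-fold with 5 CPM added, for genes with at least 100 UMIs. Named pathway genes are those past it, up to 6 per class by size; up to 5 of the most similar genes are given for members with at least 200 UMIs, and 1 gene of those for Ass1 is not reported here. Sequences are from RefSeq. Of the gene IDs, 99.8% matched the annotation.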

Additional observations from a re-analysis of the deposited data

How the results depend on the processing

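With 1 library per diet, calling a difference rests on counting error, and no replicate could be left out. No paired analysis was possible because each diet has 1 library. The log2 ratios kept their direction under every alternative for Arg1 in C1q-low macrophages (0.23 to 0.48), Nos2 in both macrophage classes, and Acod1 in C1q macrophages, Cxcl10-high monocytes and neutrophils. Ass1 in Cxcl10-high monocytes was −0.05 and turned to 0.02 with median scaling. With barcodes of mixed lineage kept, the log2 ratio of Arg2 in neutrophils was −0.22 instead of 0.72, of Arg1 in C1q macrophages 0.054 instead of 0.15, of Ass1 there 0.0092 instead of 0.16, of Ass1 in Cxcl10-high monocytes −0.31 instead of −0.05, and of Acod1 in neutrophils −1.01 instead of −0.57.

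Levels were lower in that setting, on the ketogenic and the normal diet, at 869 and 623 CPM for Arg1 and 44.0 and 55.3 CPM for Nos2 in C1q-low macrophages. They were 157 and 183 CPM for Arg2 and 824 and 1662 CPM for Acod1 in neutrophils, and 222 and 275 CPM for Ass1 in Cxcl10-high monocytes. With gate thresholds doubled, those for leaving out mixed barcodes included, Acod1 in neutrophils had a log2 ratio of −0.85 and levels of 1655 and 2977 CPM, ketogenic Arg2 was 388 CPM there and ketogenic Arg1 in C1q-low macrophages 1687 CPM. In C1q macrophages the Arg1 log2 ratio was 0.26 as a mean over cells and −0.035 with the C1q-low list alone as the cut, an alternative added after seeing the data. Monocytes left unsplit, also added then, had log2 ratios of −0.23 for Arg1, −0.19 for Ass1 and −0.85 for Acod1.

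Among phagocytes of no class, the Arg1 log2 ratio of 0.70 turned to −1.41 with mixed barcodes kept, −1.01 as a mean over cells and −0.13 with the C1q-low cut alone, and the Ass1 log2 ratio of 0.97 to −0.30 with mixed barcodes and −0.14 with doubled gates. Acod1 in CD8 T cells turned to −0.96 instead of 1.01 with mixed barcodes. Apart from settings that change which barcodes form a class, the cause was not tested. Subtracting free RNA, median scaling, a minimum of 1000 UMIs, no mitochondrial limit and leaving out the top barcode moved none of the 10 main ratios beyond its counting interval. Over the pathway lists, 31 counts per class moved by over 1.5 times and 65 did not with a 2-fold rule, and 55 moved and 41 did not without a count minimum. Of the shares of cells, 45 moved and 7 did not without thinning. Depth limits what can be said per cell of Arg2 and Acod1 in neutrophils, of which 50 ketogenic and 80 normal diet cells had too few UMIs to be thinned.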
